A study of Mus musculus with 35 samples.

Results

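The 10 libraries compared here were the 5 of G-NHA9Midi and the 5 of the empty vector, chosen by their labels out of 35 libraries in 7 groups. NHA9 is the fusion of the N-terminal part of the nucleoporin NUP98 with the C-terminal part of the transcription factor HOXA9, and it drives acute myeloid leukaemia. The NUP98 part is intrinsically disordered and rich in phenylalanine-glycine (FG) motifs, and the HOXA9 part holds the DNA-binding homeodomain. Hox genes are active in haematopoietic stem and progenitor cells and are shut off as blood cells mature, and fusions of this kind are known for keeping them on.

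G-NHA9Midi (labelled G-NHX9-midi) is a truncated, mEGFP-tagged NHA9 that keeps the C-terminal FG-rich stretch of the NUP98 part and the HOXA9 part, without the binding site for the export factor RAE1. The empty vector carries mCherry and no fusion. The cells were lin- haematopoietic stem and progenitor cells (HSPCs), that is, bone marrow cells of male and female C57Bl/6 mice from which cells with mature lineage markers had been removed. They were infected with lentivirus, sorted 2 days later for mCherry (empty vector) or for mCherry and mEGFP (G-NHA9Midi), and grown for 1 week in cytokine-containing methylcellulose with 10 ng/mL GM-CSF added, and RNA was taken from this first plating. The labels give an age of 8 weeks for the mice of all 5 G-NHA9Midi libraries and of empty vector libraries 1 to 3, and of 9 and 10 weeks for empty vector libraries 4 and 5. Of the other groups compared below, G-NHA9 library 1 is labelled 11 weeks and all others 8 weeks. The ages of 9, 10 and 11 weeks stand on 3 samples that follow each other in the sample list, so they may be an entry error, and the files do not settle this. As a model, both groups are short-term cultures of mixed mouse progenitors and not leukaemias, and only the cells with the fusion were also sorted for mEGFP. The study's methods describe infection in triplicate, while its figure legend and the labels give 5 libraries a group. How these 5 relate to separate mice or infections is not stated. The p-values therefore measure the spread between these libraries, which may be partly technical.

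The 10 libraries held 31559914 to 50617785 counted reads. Expression is given as CPM, counts scaled to a library of common size, with library sizes adjusted by TMM, a method that takes most genes as unchanged, and the mean ± SD is over the 5 libraries of a group. Correlations of log2 CPM across genes were 0.978 to 0.992 between libraries of the empty vector, 0.983 to 0.991 between those of G-NHA9Midi, and 0.936 to 0.967 between the groups. Of 17166 genes tested with edgeR's quasi-likelihood test, 6956 (40.5%) passed an adjusted p of 0.05, of which 3520 (20.5% of those tested) were higher and 3436 (20.0%) lower in G-NHA9Midi. These shares are the background for the counts of each gene list, and the median log2 fold change of all genes tested was 0.02. The falls were larger than the rises: of the genes called, 1666 were at least 2-fold lower and 892 at least 2-fold higher. Groups did not overlap for 2306 genes higher (13.4%) and 2391 genes lower (13.9%) in G-NHA9Midi. At 8-fold or more, 216 genes were lower and 164 higher. Without TMM the median of all genes moved to 0.14 and the genes called became 5087 higher (64.7%) and 2781 lower, compared with 50.6% higher under TMM, so small changes are relative to the scaling.

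**Figure D1:**
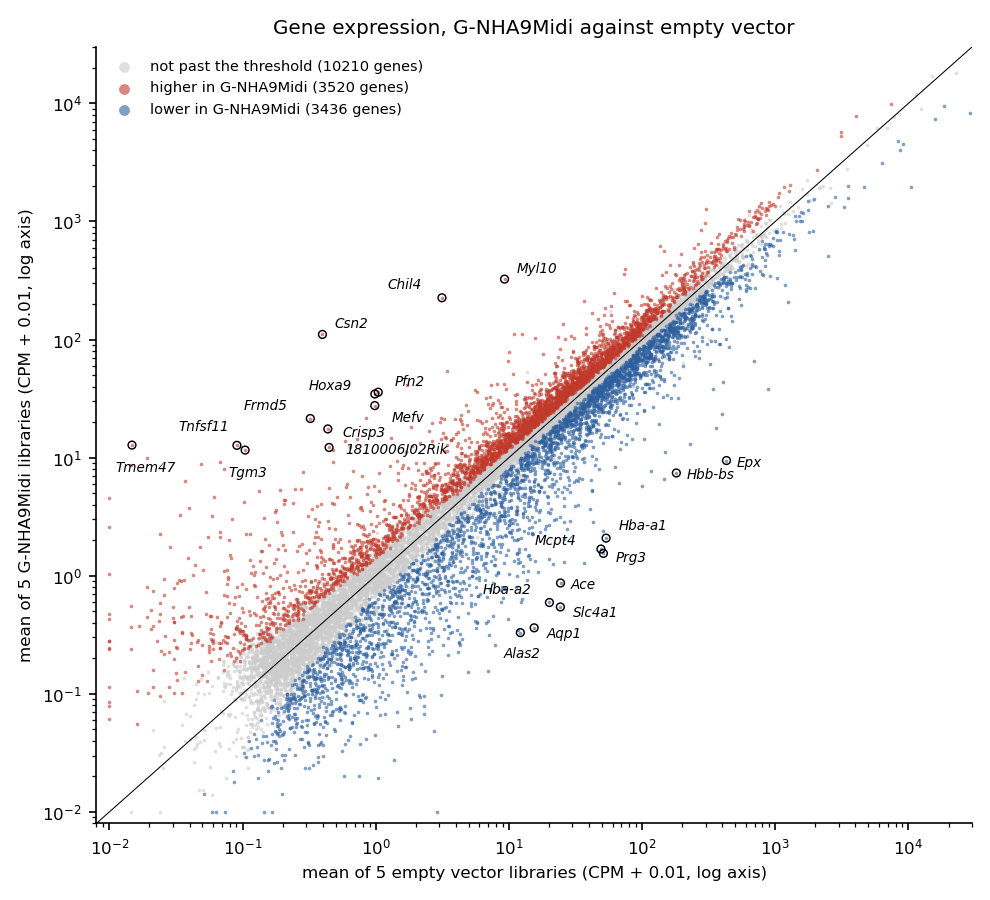
Mean expression of each gene tested in the 5 empty vector libraries (horizontal axis) and the 5 G-NHA9Midi libraries (vertical axis), in CPM with 0.01 added, on log axes. Red points are the 3520 genes called higher, blue points the 3436 called lower and grey points the rest, and the genes named in the text among the 12 that rose most and the 12 that fell most are circled. The line marks equal levels.

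The 12 genes that rose most, taken among genes called, without overlap and averaging 5 CPM or more across the 10 libraries, were low or nearly silent with the empty vector. They included the casein gene Csn2, the cytokine gene Tnfsf11, the myosin light chain gene Myl10, the actin-binding profilin gene Pfn2 and Hoxa9. Csn2, the gene of the milk protein beta-casein and a classic target of the signalling factor STAT5, was at 0.048, 0.0918, 0.324, 0.896 and 0.582 CPM in empty vector libraries 1 to 5. It was at 45.2, 155, 92.2, 78.8 and 181 CPM in G-NHA9Midi libraries 1 to 5. The change was 307-fold (log2 fold change 8.26 ± 1.05 (SE), edgeR adjusted p = 1.7e-07), and the lowest G-NHA9Midi library stood far above the highest empty vector library, although the G-NHA9Midi libraries themselves differed several-fold. Csn1s2a, another casein gene, named through the comparison with G-NHA9, had at most 3 counts in every empty vector library and 9.86 ± 6.13 CPM in G-NHA9Midi, at least 123-fold higher (edgeR adjusted p = 7.8e-10).

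The Csn2 promoter is shown because this gene had the largest rise of the 12 among those with counts in most empty vector libraries. The 250 bases before its start site (RefSeq, GRCm38.p6, chr5:87699426-87699675, minus strand, written 5′ to 3′) hold 1 match to TTCNNNGAA, the consensus that STAT factors recognise, in capitals, which ends at position -85 from the start site.
Csn2: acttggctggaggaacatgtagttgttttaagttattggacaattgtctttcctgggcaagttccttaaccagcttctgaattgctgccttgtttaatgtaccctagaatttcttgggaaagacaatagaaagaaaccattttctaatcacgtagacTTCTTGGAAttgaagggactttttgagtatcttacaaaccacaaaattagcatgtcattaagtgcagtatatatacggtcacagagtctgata
Searched on both strands, this motif is in 2306 of 32851 promoters of this length in the RefSeq table (7.02%), and the match is a description of these letters only.

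Tmem47, a transmembrane protein gene, had 1 count in empty vector library 1 and none in the other 4, and was at 12.8, 20.6, 14.1, 6.63 and 9.74 CPM in G-NHA9Midi, at least 159-fold higher (edgeR adjusted p = 1.2e-12). It overlaps Gm26775 on the opposite strand. Tnfsf11, which encodes the osteoclast-inducing cytokine RANKL, was at 0.12, 0.0689, 0.116, 0.0996 and 0 CPM with the empty vector and at 12, 20, 12.8, 9.36 and 9.29 CPM in G-NHA9Midi (log2 fold change 7.21 ± 0.45 (SE), edgeR adjusted p = 5.8e-14). No library of either group came near the other group. Myl10 was expressed at a measurable level in all 10 libraries, at 11.8, 4.09, 12.5, 11.7 and 6.18 CPM with the empty vector and at 220.2, 453, 337, 259.8 and 354 CPM in G-NHA9Midi (log2 fold change 5.13 ± 0.31 (SE), edgeR adjusted p = 4.7e-14). Pfn2 was at 1.2, 1.03, 1.09, 1.03 and 0.826 CPM with the empty vector and at 42.9, 34.4, 41.4, 26.9 and 33.5 CPM in G-NHA9Midi (log2 fold change 5.10 ± 0.16 (SE), edgeR adjusted p = 3.6e-22), the smallest SE among the 12 genes that rose most. All 5 G-NHA9Midi libraries were far above the empty vector libraries for both genes.

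Chil4, a chitinase-like protein gene, rose 72.6-fold from 3.13 ± 1.29 to 226 ± 50.3 CPM, while its close paralog Chil3, a gene of maturing neutrophils and macrophages, fell 5.35-fold from 10418 ± 3990.2 to 1946 ± 641 CPM. Reads from near-identical copies such as these may be split between them in counting. Frmd5, a gene of a cytoskeletal linker protein, rose 68.4-fold from 0.313 ± 0.0628 to 21.4 ± 6.51 CPM, and it overlaps Gm14021 on the same strand. Mefv, the gene of the inflammasome sensor pyrin, rose 28.5-fold from 0.974 ± 0.321 to 27.6 ± 8.21 CPM. Tgm3, a transglutaminase gene that overlaps Mir6339, rose 119-fold and Crisp3, a secretory protein gene, rose 38.9-fold, with 1 empty vector library at 1.75 CPM and the other 4 at 0.0306 to 0.139. The uncharacterised gene 1810006J02Rik rose 28-fold. Groups did not overlap for any of these genes, which the rule for naming them required.

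Among the Hox genes, the change lay mainly in the 3′ and middle part of the Hoxa cluster, with smaller rises of Hoxb3 and Hoxb4. Of the 11 Hoxa genes, 9 were tested and 7 rose (Hoxa2, Hoxa3, Hoxa5, Hoxa6, Hoxa7, Hoxa9 and Hoxa10), with a median log2 fold change of 4.55 for the 9, or 3.64 with the genes at the counting limit set at their bounds. The background was 20.5% of genes called higher. Hoxa11 and Hoxa13 did not pass the filter on low counts. Hoxa9, which programmes stem and progenitor cells and is the fusion partner itself, was at 1.08, 1.26, 0.693, 0.83 and 1.01 CPM with the empty vector and at 30.6, 44.4, 37.8, 25.5 and 34.5 CPM in G-NHA9Midi (log2 fold change 5.14 ± 0.39 (SE), edgeR adjusted p = 6.6e-12). All 5 G-NHA9Midi libraries were higher by more than an order of magnitude. The Hoxa9 count could include reads from the construct RNA, which was not tested, and the level of construct RNA in each group is not known here. The same gene was at 1.12 ± 0.72 CPM in the libraries of G-NHA9Midi–21FGAA, a construct that carries the same HOXA9 part.

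Hoxa7 was at 0.408, 1.24, 0.37, 0.365 and 0.52 CPM with the empty vector and at 15.2, 15.5, 15.5, 10.7 and 12.7 CPM in G-NHA9Midi (log2 fold change 4.55 ± 0.41 (SE), edgeR adjusted p = 1.7e-10). Hoxa5 was at 0.192, 0.0918, 0.139, 0.266 and 0.214 CPM with the empty vector and at 4.6, 7.77, 5.48, 3.74 and 4.74 CPM in G-NHA9Midi (log2 fold change 4.89 ± 0.33 (SE), edgeR adjusted p = 2.2e-13). Neither gene overlapped between the groups, and the spread among the G-NHA9Midi libraries was small beside the change. Hoxa3 rose 21.7-fold from 0.169 ± 0.0862 to 3.62 ± 1.03 CPM, and Hoxa2 and Hoxa6, each with at most 3 counts in every empty vector library, were at least 11.4-fold and at least 12.5-fold higher. Hoxa10, the next gene on the 5′ side of Hoxa9, rose only from 0.0634 ± 0.0751 to 0.30 ± 0.0631 CPM (log2 fold change 2.12 ± 0.57 (SE), edgeR adjusted p = 0.0034). Hoxa4 was at 0.384 ± 0.0967 and 0.50 ± 0.0819 CPM (log2 fold change 0.39) and did not pass the test. Hoxa3, Hoxa4, Hoxa5 and Hoxa6 overlap one another or Gm28308 on the same strand and Hoxaas3 lies opposite, as it does opposite Hoxa7, so reads may be shared among them.

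Of 8 Hoxb genes tested, 4 rose, led by Hoxb3 from 0.619 ± 0.308 to 2.77 ± 0.346 CPM (log2 fold change 2.18 ± 0.23 (SE), edgeR adjusted p = 3.0e-09) and Hoxb4 from 3.73 ± 0.713 to 5.83 ± 0.426 CPM (log2 fold change 0.65 ± 0.18 (SE), edgeR adjusted p = 0.0041). Hoxb3, whose antisense gene Hoxb3os overlaps it, and Hoxb4 are both known in stem cell renewal. The other Hoxb rises were of Hoxb2 and Hoxb9, at no more than 0.22 CPM on average, and both lost the call when empty vector libraries 4 and 5 were left out. Hoxc4 and Hoxc6 were called higher of 4 Hoxc genes tested, at 0.0924 ± 0.024 and 0.144 ± 0.0857 CPM, but neither call held without empty vector library 1 or without empty vector library 5. None of the 9 Hoxd genes passed the filter on low counts. In the summed level per library, the Hoxa genes ranged from 2.82 to 5.08 CPM with the empty vector and from 46.6 to 76.1 CPM in G-NHA9Midi.

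**Figure D2:**
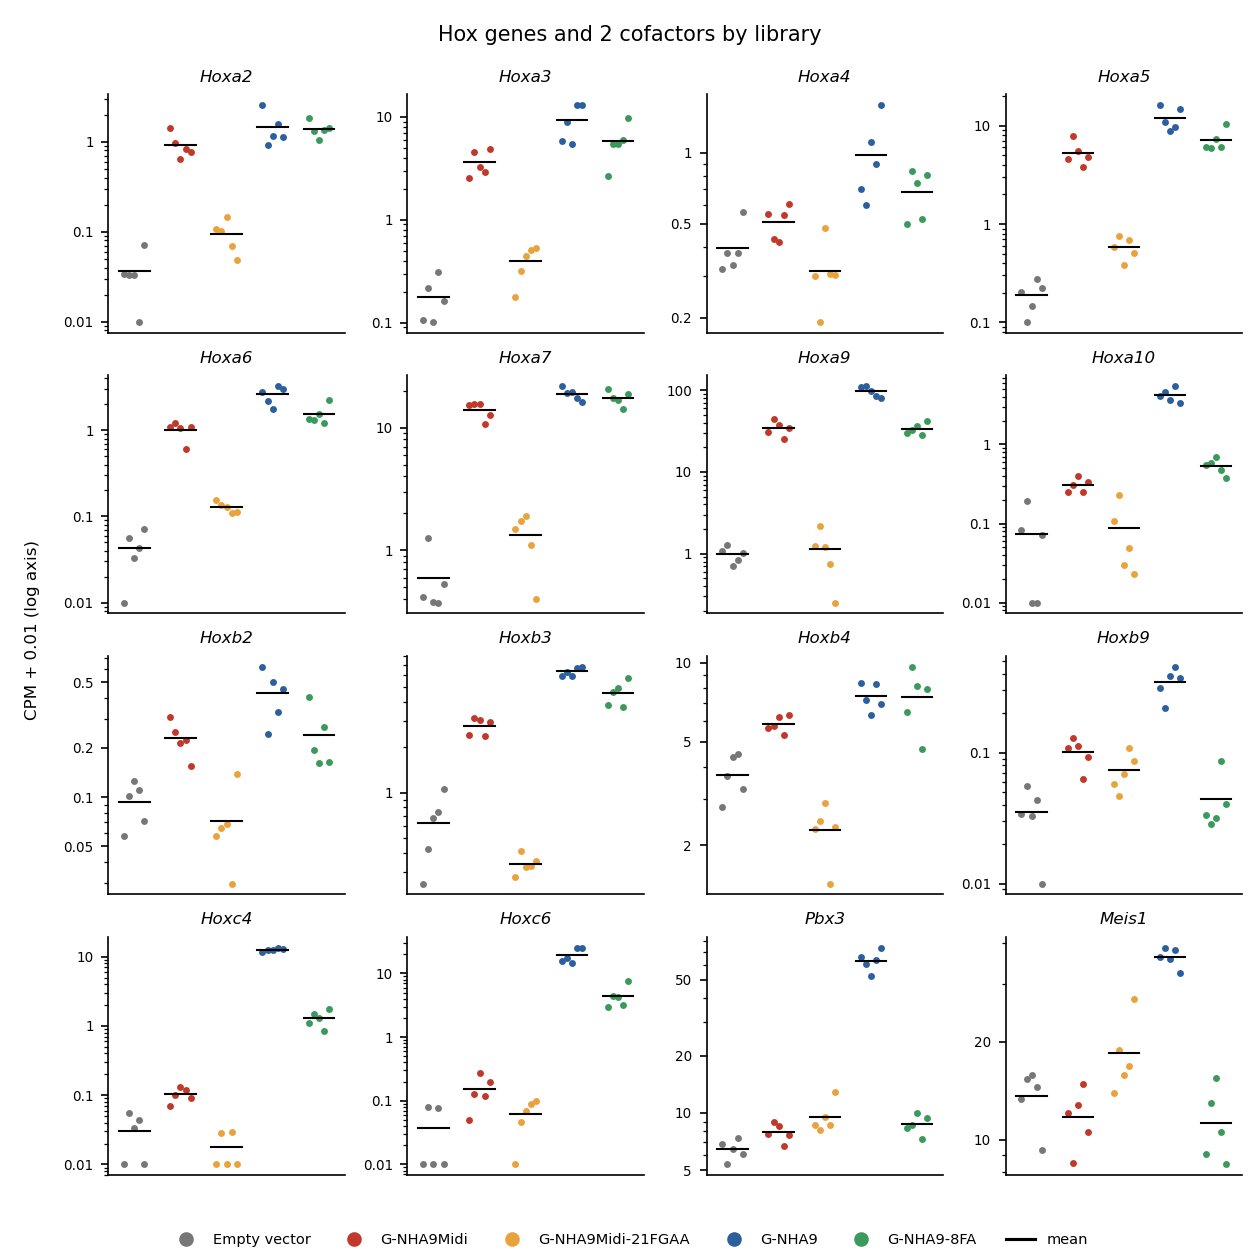
CPM with 0.01 added (log axes, which differ between panels) of 14 Hox genes and the cofactor genes Pbx3 and Meis1 in each library of the empty vector, G-NHA9Midi, G-NHA9Midi–21FGAA, G-NHA9 and G-NHA9–8FA. Points are libraries (5 per group) and lines are means. Hoxa9 averaged 34.6 CPM in G-NHA9Midi and 0.975 with the empty vector, and Hoxc4 and Hoxc6 were near 0 in both but at 12.6 and 19.6 in G-NHA9.

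Hox proteins bind DNA together with TALE homeobox proteins of the Meis, Pbx and Pknox families. The TALE genes moved in both directions, with 4 of 10 tested higher and 3 lower (median log2 fold change 0.04). Meis1, the cofactor best known from HOXA9-driven leukaemia, was at 13.4, 15.3, 15.9, 14.5 and 9.3 CPM with the empty vector and at 12.1, 8.49, 12.7, 14.9 and 10.6 CPM in G-NHA9Midi (log2 fold change -0.22 ± 0.18 (SE), edgeR adjusted p = 0.34). Its groups overlapped. Pbx3, the partner most often named beside it, was at 6.43 ± 0.777 and 7.91 ± 0.884 CPM (log2 fold change 0.30 ± 0.14 (SE), edgeR adjusted p = 0.083) and did not pass. Pknox1 rose 2.01-fold from 20.5 ± 4.09 to 41.3 ± 3.87 CPM and Tgif2, a repressor of the family, rose 4.56-fold from a low level, while Meis3 fell 5.19-fold and Pknox2 fell 5.71-fold.

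Of 12 genes of NUP98 and of partners of NUP98 fusions in transport and chromatin, 4 rose, and this number was 2 without empty vector library 2, 4 or 5 and without G-NHA9Midi library 2, while 3 fell without G-NHA9Midi library 5. Rae1, the export factor gene, rose 1.47-fold from 37.6 ± 2.21 to 55.3 ± 3.18 CPM. Nup98 was at 129 ± 12.5 and 167 ± 17.5 CPM (log2 fold change 0.37 ± 0.12 (SE), edgeR adjusted p = 0.012), and this count may include reads from the construct.

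Transcription factor genes of stem cells and leukaemia rose in part. Of 22 tested, 10 were higher and 2 lower (median log2 fold change 0.34), compared with 20.5% and 20.0% of all genes. The genes lower were Gata2 and Gfi1b, and 4 were lower without G-NHA9Midi library 5 and 1 without empty vector libraries 4 and 5. Gfi1, a repressor that directs granulocyte development, was at 23, 10.8, 21.9, 23.1 and 11.4 CPM with the empty vector and at 49.2, 102, 75, 61.7 and 92.5 CPM in G-NHA9Midi (log2 fold change 2.08 ± 0.26 (SE), edgeR adjusted p = 1.1e-07). Sox4, a progenitor and leukaemia factor, was at 9.26, 7.81, 6.05, 7.44 and 7.01 CPM with the empty vector and at 28.4, 32.8, 31.3, 23.1 and 24.6 CPM in G-NHA9Midi (log2 fold change 1.90 ± 0.17 (SE), edgeR adjusted p = 1.8e-10). Neither gene overlapped between the groups. Gfi1 and Sox4 each have a gene opposite them, A430072P03Rik and Gm26735. Hlf, a stem cell factor that is low in mature blood, rose 4.61-fold from 0.914 ± 0.34 to 4.16 ± 0.887 CPM. Fli1 rose 1.37-fold, whereas the broadly expressed Runx1 and Ikzf1 were at log2 fold changes of -0.63 and -0.11 and did not pass.

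The surface genes of stem and progenitor cells split in direction, with 4 of 14 higher and 6 lower. Thy1, a marker of early stem cells, was at 12.4, 6.64, 16.1, 26.8 and 16.9 CPM with the empty vector and at 52.8, 111, 94.9, 96 and 163 CPM in G-NHA9Midi (log2 fold change 2.72 ± 0.39 (SE), edgeR adjusted p = 9.5e-07), with no overlap. Ly6a, which encodes the stem cell antigen Sca-1, rose 1.46-fold from 116 ± 22.8 to 169.9 ± 17 CPM. Slamf1, which encodes CD150 of stem cells and megakaryocyte progenitors, fell 7.62-fold from 11.5 ± 2.37 to 1.52 ± 0.565 CPM, and Esam, a junction protein gene, fell 10.5-fold. Itga2b, which encodes the platelet integrin CD41, fell 3.8-fold from 267 ± 63.2 to 70.2 ± 12.7 CPM. Cd93 was high in both groups, at 1098 ± 108 and 954 ± 179 CPM, and did not pass. Markers of immature cells did not move as a block.

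Growth factor receptor genes mostly fell, with 12 of 18 tested lower and 4 higher, though only 7 were lower without empty vector libraries 4 and 5. Epor, the erythropoietin receptor gene, fell 8.13-fold from 3.38 ± 0.596 to 0.415 ± 0.0695 CPM. Flt3, a receptor tyrosine kinase gene of early progenitors that is often mutated in leukaemia, was at 0.096, 0.253, 0.162, 0.332 and 0.0918 CPM with the empty vector and at 2.65, 1.26, 2.78, 2.62 and 1.69 CPM in G-NHA9Midi (log2 fold change 3.56 ± 0.31 (SE), edgeR adjusted p = 9.5e-11). The level stayed low, but every G-NHA9Midi library was above every empty vector library, and Gm26597 lies opposite the gene. Lepr, the leptin receptor gene, rose 3.87-fold from 3.68 ± 1.26 to 14.2 ± 3.03 CPM. Csf2rb, the gene of the shared beta chain of the GM-CSF receptor, its near-identical neighbour Csf2rb2, which may share its reads, and Csf1r were called lower, at 1005 ± 236, 122 ± 76.2 and 209 ± 36 CPM in G-NHA9Midi, but each lost the call under at least 1 alternative.

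Genes induced by STAT5 or STAT3 downstream of cytokines were called higher for 5 of 14 and lower for 3. Beside Csn2, the rise was largest for Il2ra, which encodes the IL-2 receptor chain CD25, at 2.02, 2.59, 2.54, 5.24 and 3.8 CPM with the empty vector and 16.2, 16.9, 19.1, 22.3 and 31.8 CPM in G-NHA9Midi (log2 fold change 2.73 ± 0.49 (SE), edgeR adjusted p = 3.8e-05). The groups did not overlap. Socs3, a feedback inhibitor gene of cytokine signalling, rose 1.64-fold from 164 ± 24.5 to 269.9 ± 37.3 CPM, and Pim1, a kinase gene of the same response, rose 1.39-fold from 471 ± 50.8 to 655 ± 84.4 CPM. Cish, also a feedback gene, was at 196 ± 77 and 184 ± 78.7 CPM and did not pass, while Ccnd1 and Bcl2l1 fell 2.08-fold and 1.57-fold.

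The red cell genes Slc4a1, Aqp1, Alas2, Hba-a1, Hba-a2 and Hbb-bs were among the 12 genes that fell most, beside genes of eosinophils and mast cells. These 12 were taken by the same rule, which required that the groups did not overlap. In the list of the red cell membrane and skeleton, 17 of 20 genes fell and none rose (median log2 fold change -4.30), against a background of 20.0% lower, and 1 gene rose without empty vector library 1 or without G-NHA9Midi library 3 or 4. Slc4a1, which encodes the anion exchanger band 3, was at 52, 13.2, 13.7, 12.7 and 30.1 CPM with the empty vector and at 0.179, 1.14, 0.102, 0.776 and 0.474 CPM in G-NHA9Midi (log2 fold change -5.60 ± 0.74 (SE), edgeR adjusted p = 3.1e-07). The empty vector libraries varied several-fold among themselves, but the highest G-NHA9Midi library was below the lowest of them. Aqp1, the water channel gene, fell 43.3-fold, the blood group gene Ermap fell 34.9-fold and Epb42, a gene of the membrane skeleton, fell 62.5-fold from 2.72 ± 1.63 to 0.0382 ± 0.049 CPM. In bulk RNA, fewer cells of a type and less RNA per cell cannot be told apart.

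Of 12 heme synthesis genes, 5 fell and none rose, led by Alas2, the first and rate-limiting enzyme of heme synthesis in red cell precursors. Alas2 was at 23.7, 6.93, 8.48, 6.94 and 14.9 CPM with the empty vector and at 0.0199, 0.60, 0.0409, 0.588 and 0.35 CPM in G-NHA9Midi (log2 fold change -5.35 ± 0.73 (SE), edgeR adjusted p = 4.8e-07), without overlap. Apex2 and Mir3620 lie opposite Alas2. Fech, the enzyme gene for the last step, fell 1.65-fold from 49.1 ± 5.58 to 29.8 ± 2.98 CPM. Of 4 globin genes tested, Hba-a1, Hba-a2 and Hbb-bs fell. Hbb-bs, adult beta-globin, was at 330.3, 151, 137, 104 and 182 CPM with the empty vector and at 0.698, 15.6, 1.62, 13.2 and 5.93 CPM in G-NHA9Midi (log2 fold change -4.63 ± 0.68 (SE), edgeR adjusted p = 1.9e-06), again without overlap. Its near-identical neighbour Hbb-bt was at 69.3 ± 28.1 and 45.5 ± 8.63 CPM and did not pass, and reads of this pair and of Hba-a1 and Hba-a2 may be split between copies.

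The promoters of Alas2 and Epb42 are shown as examples with a GATA motif among genes that fell, as did the GATA factor gene Gata1. Both are the 250 bases before the start site (RefSeq, GRCm38.p6, 5′ to 3′), at chrX:150547167-150547416 on the plus strand for Alas2 and chr2:121036878-121037127 on the minus strand for Epb42, with the motif AGATAA, which GATA factors recognise, in capitals (found in both on the opposite strand, where it reads TTATCT).
Alas2: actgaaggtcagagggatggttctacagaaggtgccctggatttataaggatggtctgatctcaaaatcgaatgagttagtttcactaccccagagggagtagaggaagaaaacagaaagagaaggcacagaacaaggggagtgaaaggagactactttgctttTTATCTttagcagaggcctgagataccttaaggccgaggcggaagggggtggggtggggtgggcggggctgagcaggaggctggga
Epb42: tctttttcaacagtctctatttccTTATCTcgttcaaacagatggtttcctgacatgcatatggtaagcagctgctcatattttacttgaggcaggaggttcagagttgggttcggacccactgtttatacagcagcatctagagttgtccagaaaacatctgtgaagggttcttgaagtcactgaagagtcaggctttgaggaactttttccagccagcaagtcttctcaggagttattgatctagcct
Of the 25 globin, heme and membrane genes called lower, 19 matched the RefSeq table by symbol and 5 of these (26.3%) hold AGATAA on either strand. Among the 36 genes of these lists that were tested, 28 matched and 6 of these hold it (21.4%). Of all promoters of this length, 3281 of 32851 hold it (9.99%). A listed gene was counted once if any of its promoters held the motif, while the last share counts each promoter, so the shares are not counted alike. The match is a description of the letters, and the 25 genes were chosen by their change. The promoters shown are among the 5 that hold the motif, so they do not stand for the 19. Whether a GATA factor acts on them was not tested.

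Of 12 erythroid and megakaryocyte transcription factor genes, Gata1, Klf1, Zfpm1, Gfi1b and Zbtb7a fell and Nfe2 and Lmo2 rose, and only 1 rose without empty vector library 1, 4 or 5 or without G-NHA9Midi library 3 or 4. Klf1, the erythroid Krüppel-like factor, was at 7.8, 9.41, 5.11, 3.09 and 3.21 CPM with the empty vector and at 0.359, 0.27, 0.266, 0.535 and 0.536 CPM in G-NHA9Midi (log2 fold change -3.86 ± 0.44 (SE), edgeR adjusted p = 1.8e-08). Gata1, the GATA factor of red cells, megakaryocytes, mast cells and eosinophils, was at 19.9, 23.6, 21.9, 19.3 and 14.1 CPM with the empty vector and at 3.53, 2.52, 3.99, 6.02 and 4.74 CPM in G-NHA9Midi (log2 fold change -2.25 ± 0.23 (SE), edgeR adjusted p = 2.4e-09). For neither gene did the groups overlap. Zfpm1, which encodes the GATA1 cofactor FOG1, fell 1.96-fold, whereas Nfe2 rose 1.36-fold from 101 ± 7.81 to 137 ± 15.4 CPM. Iron genes shared by many cell types also fell, with the ferritin genes Fth1 2.0-fold and Ftl1 1.93-fold lower and the ferrireductase gene Steap3 3.51-fold lower, among 5 lower and 2 higher of 11 tested, with 1 higher without empty vector library 1, 2 or 3 or G-NHA9Midi library 2 or 5.

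Most platelet and megakaryocyte genes fell, with 17 of 20 lower, 1 higher and a median log2 fold change of -2.89. The summed level of the list did not fall, at 6126 ± 510 CPM with the empty vector and 6633 ± 806 CPM in G-NHA9Midi. Pf4, the platelet chemokine gene, was at 200.03, 393, 415, 415 and 273 CPM with the empty vector and at 21.5, 28.5, 36.4, 61.4 and 43.9 CPM in G-NHA9Midi (log2 fold change -3.15 ± 0.39 (SE), edgeR adjusted p = 9.3e-08). Itgb3, the integrin beta chain gene that pairs with Itga2b, was at 281, 461, 503, 514 and 367 CPM with the empty vector and at 115, 61.6, 89, 129 and 106 CPM in G-NHA9Midi (log2 fold change -2.08 ± 0.26 (SE), edgeR adjusted p = 1.0e-07). The groups did not overlap for these genes. Ppbp, Gp1ba and Tubb1, which encode a platelet chemokine, the von Willebrand factor receptor and platelet tubulin, fell 13.6-fold, 20.3-fold and 23.3-fold. Thbs1, which macrophages also express, was the 1 gene called higher, and this call was lost without empty vector library 2, 3 or 5 and without G-NHA9Midi library 2 or 5.

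Granule genes of eosinophils and mast cells fell in the same cultures. Of 11 eosinophil genes tested, 9 fell and 2, Ccr3 and Cebpe, rose (median log2 fold change -3.91), with 1 higher without empty vector libraries 4 and 5. Epx, eosinophil peroxidase, was at 346, 322, 439.7, 445 and 598 CPM with the empty vector and at 4.27, 10.2, 4.11, 6.12 and 22.5 CPM in G-NHA9Midi (log2 fold change -5.51 ± 0.52 (SE), edgeR adjusted p = 5.6e-10). The lowest empty vector library was more than an order of magnitude above the highest G-NHA9Midi library. The granule protein genes Prg2 and Prg3 fell 23.5-fold and 33.4-fold, and Ear2, an eosinophil ribonuclease gene of a family of near-identical copies, fell 15-fold.

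Of 24 mast cell and basophil genes, 16 fell and 1 rose (median log2 fold change -1.52), most of all the proteases. Cma1, mast cell chymase, was at 559, 485, 452, 327 and 169 CPM with the empty vector and at 9.33, 16.6, 17.7, 32.7 and 39.7 CPM in G-NHA9Midi (log2 fold change -4.10 ± 0.37 (SE), edgeR adjusted p = 1.7e-10), without overlap. The chymase genes Mcpt2 and Mcpt4 fell 22.2-fold and 29.4-fold, and the tryptase gene Tpsab1 fell 45.2-fold, all from families of near-identical copies. Cpa3, carboxypeptidase A3, fell less, 3.14-fold from 1036 ± 460.2 to 330.1 ± 85.1 CPM, and Srgn, the granule proteoglycan gene of many blood cells, was the 1 that rose (1.77-fold).

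Ace, angiotensin-converting enzyme, was also among the 12 genes that fell most and belongs to none of the lists. This gene, which overlaps Gm11651 on the opposite strand, was at 20.4, 12.7, 19.5, 23.2 and 46.2 CPM with the empty vector and at 0.518, 0.42, 0.655, 1.26 and 1.44 CPM in G-NHA9Midi (log2 fold change -4.82 ± 0.41 (SE), edgeR adjusted p = 4.6e-11). Its highest G-NHA9Midi library was below its lowest empty vector library, which the rule for naming it required.

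**Figure D3:**
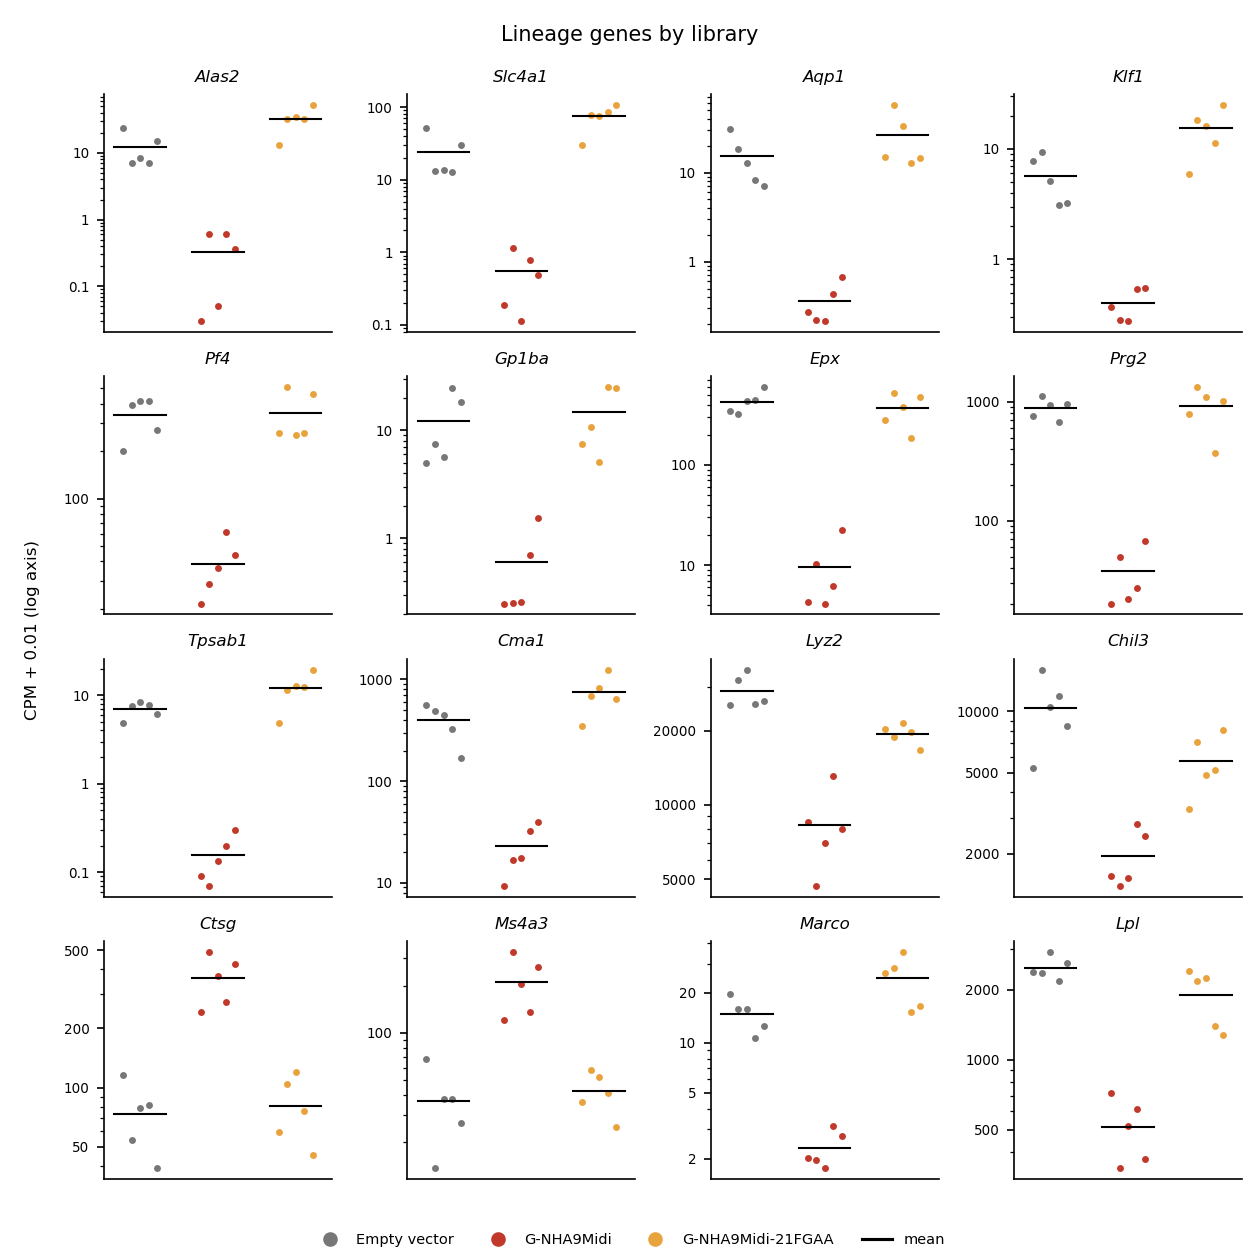
CPM with 0.01 added (log axes, which differ between panels) of 16 lineage genes in each of 5 libraries of the empty vector, G-NHA9Midi and G-NHA9Midi–21FGAA, with lines at the means. Red cell genes (Alas2, Slc4a1, Aqp1, Klf1), platelet genes (Pf4, Gp1ba), eosinophil genes (Epx, Prg2) and mast cell genes (Tpsab1, Cma1) were lowest in G-NHA9Midi, where Epx averaged 9.44 CPM compared with 430.3 with the empty vector, while the primary granule genes Ctsg and Ms4a3 were highest there.

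In the neutrophil lineage, granule genes moved in both directions. Of 15 genes of primary granules, which form at the promyelocyte stage, 6 rose and 5 fell, and the number lower was 2 without empty vector library 1 or without G-NHA9Midi library 3 and 3 without empty vector library 3 or 5 and without G-NHA9Midi library 1 or 2. Ctsg, cathepsin G, was at 116, 54.1, 78.6, 81.2 and 38.9 CPM with the empty vector and at 242, 491, 368, 272 and 428 CPM in G-NHA9Midi (log2 fold change 2.29 ± 0.30 (SE), edgeR adjusted p = 2.4e-07). Ms4a3, a membrane protein gene of granulocyte-monocyte progenitors, was at 68.3, 13.7, 38, 37.9 and 26.7 CPM with the empty vector and at 121, 329, 204, 137 and 262 CPM in G-NHA9Midi (log2 fold change 2.51 ± 0.34 (SE), edgeR adjusted p = 5.3e-07). The groups were separate for both genes. Prss57, a granule protease gene with Fstl3 overlapping it, rose 3.63-fold. Lyz2, the lysozyme gene of the same list, which macrophages also express, fell 3.52-fold from 25449, 32327, 35477, 25650.0 and 26536 to 8544, 4694, 7033, 13079 and 8022 CPM (log2 fold change -1.81 ± 0.24 (SE), edgeR adjusted p = 2.4e-07). Here too the groups did not overlap.

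Of 28 secondary granule and late neutrophil genes, 13 fell and 6 rose (median log2 fold change -0.41). Chil3 was at 5289, 16022, 10454, 11873 and 8454 CPM with the empty vector and at 1556, 1394, 1522, 2818 and 2441 CPM in G-NHA9Midi, and the formyl peptide receptor genes Fpr1 and Fpr2 fell 7.98-fold and 5.37-fold. S100a8 and S100a9, which encode the subunits of calprotectin, went the other way and rose 1.86-fold and 1.95-fold, S100a9 from 4013 ± 615 to 7842 ± 2106 CPM. The list thus held genes of both directions. Cybb, the catalytic subunit gene of the phagocyte NADPH oxidase, was at 709 ± 85.1 and 621 ± 43.3 CPM and did not pass.

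Of 32 macrophage and monocyte genes, 16 fell and 6 rose. Lpl, lipoprotein lipase, was at 2386, 2346, 2903, 2170.0 and 2607 CPM with the empty vector and at 716, 341, 519.6, 614 and 374 CPM in G-NHA9Midi (log2 fold change -2.27 ± 0.25 (SE), edgeR adjusted p = 7.1e-09). Marco, a scavenger receptor gene, fell 6.5-fold, the protease gene Ctsk fell 4.26-fold, the integrin gene Itgax, which encodes CD11c, fell 2.37-fold and Spp1, osteopontin, fell 1.73-fold. Gpnmb, a glycoprotein gene of macrophages, was at 4862 ± 1081 and 4475 ± 1557 CPM and did not pass. Lysosomal genes fell together, with 26 of 29 lower, none higher and a median log2 fold change of -0.60. Psap, the saposin precursor, was at 13067, 17938, 19659.9, 14171 and 13605 CPM with the empty vector and at 9759.9, 5215, 7076, 8534 and 6553 CPM in G-NHA9Midi (log2 fold change -1.08 ± 0.21 (SE), edgeR adjusted p = 1.2e-04), without overlap. The cathepsin genes Ctsb, Ctsd and Ctsh fell 2.21-fold, 2.04-fold and 2.54-fold, and the proton pump subunit gene Atp6v0d2 fell 2.82-fold.

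Of 15 genes of MHC class II antigen presentation, 8 fell and 4 rose. Ciita, the master activator of class II genes, fell 2.37-fold, the invariant chain gene Cd74 1.67-fold and the class II chain gene H2-Aa 1.81-fold. H2-Ob, a chain of the class II modulator H2-O, moved the opposite way, from 11.5, 9.96, 15.7, 14.3 and 11.4 CPM with the empty vector to 101, 118, 111, 113 and 117 CPM in G-NHA9Midi (log2 fold change 3.15 ± 0.21 (SE), edgeR adjusted p = 1.2e-13). Every G-NHA9Midi library was above every empty vector library for this gene, and Cd40, a costimulatory receptor gene, rose 7.53-fold from a low level. Of 14 dendritic cell genes, 7 fell, among them Itgae (7.0-fold) and Batf3 (5.36-fold), the factor of cross-presenting dendritic cells, and Flt3 rose. Of 23 myeloid transcription factor genes tested, 4 were higher and 6 lower, beside 20.5% and 20.0% of all genes. With the replicate number as a block 11 were lower. Among them Id2 and Id3 fell 2.21-fold and 2.91-fold, Gfi1, given above, rose, and Irf8 and Junb did not pass (log2 fold changes of -0.12 and 0.14).

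Genes of ribosome production rose together by small amounts. Of 56 genes of ribosome assembly and rRNA processing, 52 rose and none fell (median log2 fold change 0.68), compared with 20.5% of all genes called higher and a median of 0.02. Without empty vector libraries 4 and 5, 37 of them were called higher. Dkc1, which encodes the pseudouridine synthase dyskerin, was at 23.7, 15.8, 16.3, 13 and 14.2 CPM with the empty vector and at 54.5, 49.6, 50.3, 37.3 and 33.5 CPM in G-NHA9Midi (log2 fold change 1.44 ± 0.20 (SE), edgeR adjusted p = 3.9e-07). Npm1, the nucleolar chaperone gene that is itself often mutated in leukaemia, was at 386, 359, 304, 230.4 and 211 CPM with the empty vector and at 718, 628, 592, 511 and 335 CPM in G-NHA9Midi (log2 fold change 0.90 ± 0.19 (SE), edgeR adjusted p = 2.0e-04). Dkc1, which has Mpp1 opposite it, did not overlap between the groups, and Npm1 did. Nop58, the host of several small nucleolar RNAs, rose 2.58-fold, the pseudouridine synthase gene Pus7 rose 2.34-fold and the helicase gene Ddx21 rose 1.56-fold.

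Of 84 cytosolic ribosomal protein genes tested, 78 rose and 1, the muscle paralog Rpl3l, fell (median log2 fold change 0.62). Rpsa was at 1433, 1596, 1334, 1108 and 965 CPM with the empty vector and at 1962, 2042, 1892, 2026 and 2183 CPM in G-NHA9Midi (log2 fold change 0.65 ± 0.13 (SE), edgeR adjusted p = 9.7e-05), without overlap. Rps23, Rpl12 and Rps7 rose 1.97-fold, 1.93-fold and 1.89-fold, and ribosomal protein genes have many processed copies that can take part of their reads. Of 42 translation factor genes 28 rose and none fell, with the elongation factor genes Eef1g and Eef2 up 1.7-fold and 1.32-fold, and 11 rose without empty vector libraries 4 and 5. Of 78 mitochondrial ribosomal protein genes 35 rose and 2, Mrpl27 and Mrpl45, fell (median log2 fold change 0.22), and the number higher was 22 without empty vector library 4, 21 without library 5, 11 without both and 54 without TMM. Mrpl19, whose call held in every alternative, rose 1.57-fold.

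Of 22 genes of serine synthesis, one-carbon metabolism and the amino acid response, 16 rose and none fell (median log2 fold change 0.76). Bcat1, the branched-chain amino acid transaminase gene, was at 2.95, 4.5, 2.4, 3.92 and 1.74 CPM with the empty vector and at 19.7, 22.2, 26.1, 15.6 and 25.1 CPM in G-NHA9Midi (log2 fold change 2.81 ± 0.27 (SE), edgeR adjusted p = 6.1e-10). Cth, which makes cysteine from cystathionine, was at 6.21, 5.33, 6.29, 4.35 and 1.5 CPM with the empty vector and at 19.2, 34.8, 31.4, 20.5 and 32.8 CPM in G-NHA9Midi (log2 fold change 2.54 ± 0.66 (SE), edgeR adjusted p = 0.0024). No library of one group reached the other for these genes. The mitochondrial folate enzyme gene Aldh1l2 rose 3.12-fold, while the stress factor gene Atf4 was at a log2 fold change of 0.27 and did not pass.

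Of 43 DNA replication genes 20 rose and none fell (median log2 fold change 0.33), but only 9 were higher without empty vector libraries 4 and 5 and 13 without G-NHA9Midi library 2, and 1 was lower without empty vector library 5. Pold2, a DNA polymerase subunit gene, rose 1.94-fold from 11.5 ± 1.31 to 22.3 ± 3.71 CPM, and the helicase gene Mcm6 rose 1.48-fold with overlapping groups. Of 30 mitosis genes 3 (Cdk1, Mad2l1 and Cenpa) were called higher, a number that lay between 0 and 8 when a library was left out (0 without empty vector library 2, 3 or 4 or without G-NHA9Midi library 2, 1 without empty vector library 5 or G-NHA9Midi library 5, 7 without G-NHA9Midi library 4 and 8 without empty vector library 1). Mki67, the proliferation marker, was at 382 ± 111 and 326 ± 123 CPM and Top2a at 285 ± 92.5 and 366 ± 138 CPM, and neither passed. Among 18 genes of G1 control, 5 were higher and 9 lower, and the cell cycle inhibitor genes went both ways, with Cdkn1c 4.83-fold lower and Cdkn2b 1.94-fold higher. The number higher was 2 without empty vector library 2 or G-NHA9Midi library 2 and 3 without empty vector library 4.

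**Figure D4:**
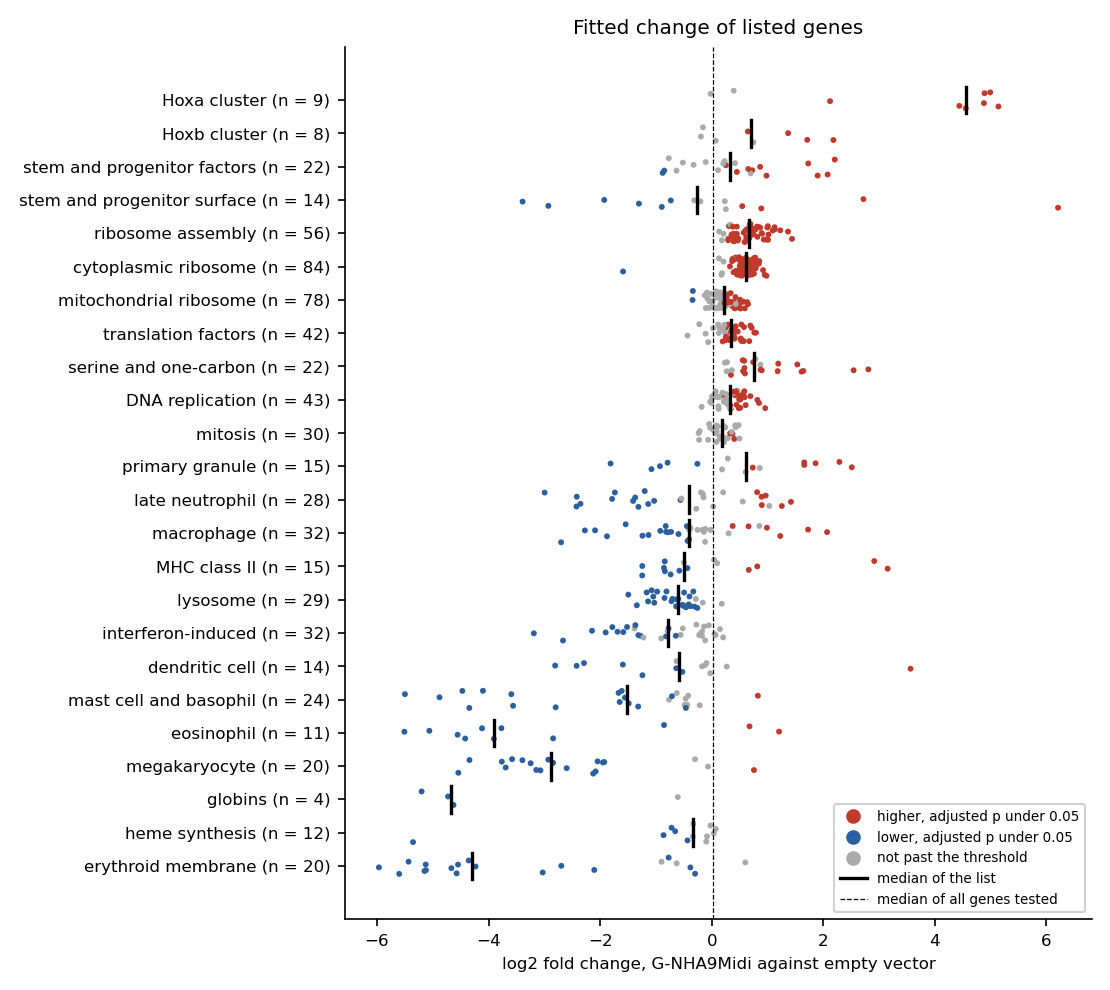
Log2 fold change of G-NHA9Midi against the empty vector for the tested genes of each list named at the left (n, genes tested), with red points for genes called higher, blue for genes called lower and grey for the rest. Thick lines are list medians and the dashed line is the median of all genes tested (0.02). The list medians ran from -4.68 for the 4 globin genes and -4.30 for the red cell membrane to 4.55 for the Hoxa cluster, and ribosome lists were narrow and above the dashed line.

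Of 32 interferon-stimulated genes, 14 fell and none rose (median log2 fold change -0.78). Ifi27l2a fell 9.12-fold from 11.7 ± 5.63 to 1.28 ± 0.214 CPM, and Oas2 and Rtp4 fell 6.35-fold and 4.43-fold. Ddx58, an RNA sensor gene, did not pass (log2 fold change -0.17). Of 19 chemokine genes, 2 rose and 4 fell, and the number higher was 4 without empty vector library 1. Cxcl3, a neutrophil attractant, was at 15.3, 11.3, 7.81, 12.2 and 7.53 CPM with the empty vector and at 67.8, 96.6, 84.2, 143 and 166 CPM in G-NHA9Midi (log2 fold change 3.36 ± 0.46 (SE), edgeR adjusted p = 5.7e-07), whereas the chemokine gene Ccl6 fell 2.15-fold. The groups did not overlap for Cxcl3.

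In the BCL2 family, which decides on cell survival, 3 of 17 genes rose and 5 fell, with 1 higher without empty vector libraries 4 and 5. Bcl2 itself rose 2.13-fold from 44.9 ± 11.3 to 96 ± 12.4 CPM, whereas the related survival genes Bcl2l1 and Mcl1 and the death-promoting Bcl2l11, which encodes BIM, fell 1.57-fold, 1.36-fold and 2.32-fold. Of 21 genes of p53 and its targets, 4 were higher and 4 lower, each 2 without empty vector libraries 4 and 5. Aen rose 1.5-fold and Phlda3 fell 1.91-fold, and Cdkn1a, Bax and Ccng1 did not pass. Of 27 genes of sterol and fatty acid synthesis, 3 were higher and 4 lower, among them the desaturase gene Scd1 (2.8-fold lower). The number lower lay between 1 and 6 when libraries were left out. Of 20 genes of glycolysis and lactate transport, 2 were higher and 6 lower, with 2 lower without TMM and 3 lower without empty vector library 1 or 5. In this list Slc16a1 rose 2.01-fold and Ldhb fell 4.46-fold.

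Against the same truncation with its FG motifs mutated to AA (G-NHA9Midi–21FGAA, labelled G-NHX9-midi-21FGAA, 5 libraries), 7403 genes (43.1%) were called, 3814 higher (22.2%) and 3589 lower (20.9%) in G-NHA9Midi. This comparison shares the G-NHA9Midi libraries with the others, so its values are given side by side with theirs and are not a repeat. It asks how G-NHA9Midi differed from the same construct without intact FG motifs. Of the 9 Hoxa genes, 8 were higher, and Hoxa7 averaged 13.9 CPM in G-NHA9Midi, 1.32 in G-NHA9Midi–21FGAA and 0.581 with the empty vector. Tmem47 had at most 3 counts in every G-NHA9Midi–21FGAA library and was at least 226-fold higher in G-NHA9Midi (edgeR adjusted p = 4.7e-13), and Tnfsf11 was 146-fold higher (log2 fold change 7.19 ± 0.44 (SE), edgeR adjusted p = 1.6e-14). P2rx3, an ATP-gated ion channel gene with Ssrp1 opposite it, was at 0.0963, 1.77, 0.333, 0.355 and 0.178 CPM in G-NHA9Midi–21FGAA, at 6.84, 16.9, 8.9, 13.1 and 3.73 CPM with the empty vector and at 59.3, 65.7, 64.4, 61.6 and 75.5 CPM in G-NHA9Midi (log2 fold change 6.89 ± 0.85 (SE), edgeR adjusted p = 7.8e-08 against G-NHA9Midi–21FGAA). Its G-NHA9Midi libraries were above those of both other groups.

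Red cell and mast cell genes were lower in G-NHA9Midi than in G-NHA9Midi–21FGAA as well. Of 20 red cell membrane genes 19 were lower, and of 24 mast cell and basophil genes 22 were lower and 1 higher. Slc4a1 was at 29.7, 78.3, 75.5, 85 and 107 CPM in G-NHA9Midi–21FGAA (log2 fold change -7.23 ± 0.77 (SE), edgeR adjusted p = 4.7e-09), and Epb42 at 4.16, 11.2, 11.4, 9.88 and 18 CPM (log2 fold change -7.97 ± 0.77 (SE), edgeR adjusted p = 6.0e-10). Every one of these libraries was above every G-NHA9Midi library. Cpa3 averaged 2449.8 ± 759 CPM in G-NHA9Midi–21FGAA compared with 330.1 ± 85.1 in G-NHA9Midi. Of the growth genes, 79 of 84 cytosolic ribosomal protein genes were higher in G-NHA9Midi and 1 lower, and 19 of 56 ribosome assembly genes were higher and 1 lower. Of 43 DNA replication genes 20 were lower and 1 higher, and of 30 mitosis genes 13 were lower and none higher. Gm11168 was also among the 5 largest rises (log2 fold change 7.36 ± 1.85 (SE), edgeR adjusted p = 0.0017), but it varied within groups, from 0.624 to 13.3 CPM with the empty vector.

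Against the full-length fusion G-NHA9 (labelled G-NHX9, 5 libraries), 3375 genes (19.7%) were called, 1462 higher (8.52%) and 1913 lower (11.1%) in G-NHA9Midi. Without TMM the higher share of the genes called fell from 43.3% to 33.7%. The truncated construct had the lower Hox expression, as 7 of 9 Hoxa genes and 6 of 8 Hoxb genes were lower, and none was higher. All 4 tested Hoxc genes were lower too, but the filter on low counts was applied over all 7 groups. The Hoxc genes summed to 43.5 CPM in G-NHA9, 6.90 in G-NHA9–8FA and 0.548 in G-NHA9Midi. They may thus have been tested only through groups where they were high, and their count gives no support. Hoxa9 was at 108, 113, 96.5, 85.8 and 79.3 CPM in G-NHA9, above every G-NHA9Midi library (log2 fold change -1.48 ± 0.32 (SE), edgeR adjusted p = 9.3e-04). Hoxa10 averaged 4.24 ± 0.845 CPM in G-NHA9 and 0.30 ± 0.0631 in G-NHA9Midi (log2 fold change -3.80 ± 0.42 (SE), edgeR adjusted p = 4.8e-08). In the Hoxc cluster, Hoxc4 was at 11.8, 12.5, 12.3, 13.5 and 12.8 CPM in G-NHA9 and 0.0598, 0.090, 0.123, 0.107 and 0.0824 CPM in G-NHA9Midi (log2 fold change -7.06 ± 0.39 (SE), edgeR adjusted p = 1.0e-14), and Hoxc6, which overlaps Hoxc5, averaged 19.6 ± 5.35 and 0.144 ± 0.0857 CPM. Hoxa7 averaged 18.8 ± 2.21 CPM in G-NHA9 and 13.9 ± 2.16 in G-NHA9Midi and did not pass (log2 fold change -0.43 ± 0.33 (SE), edgeR adjusted p = 0.39).

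The erythroid and megakaryocyte genes that were low in G-NHA9Midi were not as low in G-NHA9, with 15 of 20 red cell membrane genes and 17 of 20 megakaryocyte genes lower in G-NHA9Midi and 1 megakaryocyte gene higher. Aqp1 averaged 11.2 ± 4.98 CPM in G-NHA9 and 0.352 ± 0.194 in G-NHA9Midi (log2 fold change -4.96 ± 0.59 (SE), edgeR adjusted p = 2.0e-07). Of 32 interferon-stimulated genes 22 were lower in G-NHA9Midi, and of 84 cytosolic ribosomal protein genes 38 were higher. Chil4 was at 2.5, 2.9, 3.77, 4.67 and 3.12 CPM in G-NHA9, close to its empty vector level and far below its G-NHA9Midi level (log2 fold change 6.05 ± 0.44 (SE), edgeR adjusted p = 1.1e-11). Ms4a8a, a tetraspan membrane protein gene, averaged 0.47 ± 0.347 CPM in G-NHA9, 2.14 ± 1.17 with the empty vector and 13.2 ± 3.83 in G-NHA9Midi (log2 fold change 4.82 ± 0.54 (SE), edgeR adjusted p = 7.1e-08 against G-NHA9). Tmem47 and Csn1s2a were also higher than in G-NHA9, 31.3-fold and 59.2-fold.

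G-NHA9–8FA (labelled G-NHX9-8FA, 5 libraries), the full-length fusion with 8 phenylalanines mutated to alanine, differed from G-NHA9Midi in fewer genes than the other groups compared, with 720 genes (4.19%) called, 256 higher (1.49%) and 464 lower (2.70%) in G-NHA9Midi. Without TMM 988 genes were called and the balance turned, with 589 higher and 399 lower. The number called was 374 without G-NHA9Midi library 2, 394 without G-NHA9Midi library 3 and 455 without G-NHA9–8FA library 2. Of 20 red cell membrane genes 1 was higher and none lower. Hoxa9 was at 33.8 ± 5.2 CPM in G-NHA9–8FA and 34.6 ± 7.19 in G-NHA9Midi (log2 fold change 0.03 ± 0.31, SE). Missing the threshold does not show that such genes were alike. Of 4 Hoxc genes 3 were lower in G-NHA9Midi, with Hoxc6 at 4.47 ± 1.9 CPM in G-NHA9–8FA (log2 fold change -4.91 ± 0.45 (SE), edgeR adjusted p = 1.5e-08), and of 8 Hoxb genes 2 were lower. The limit given above for the count of Hoxc genes holds here too. Of 28 late neutrophil genes 10 were lower and of 15 primary granule genes 4, while 8 of 56 ribosome assembly genes were higher.

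The genes that differed most between these constructs were chosen by this difference. Tnfsf11 was at 0.722, 1.46, 1.16, 1.39 and 0.947 CPM in G-NHA9–8FA, below every G-NHA9Midi library (log2 fold change 3.47 ± 0.34 (SE), edgeR adjusted p = 3.9e-08), and Frmd5 averaged 2.89 ± 1.13 and 21.4 ± 6.51 CPM (log2 fold change 2.89 ± 0.32 (SE), edgeR adjusted p = 3.4e-07). Tgfb2, a TGF-beta growth factor gene, averaged 1.24 ± 0.322 CPM in G-NHA9–8FA and 8.9 ± 2.97 in G-NHA9Midi, and with at most 3 counts in every empty vector library it was at least 111-fold higher in G-NHA9Midi than with the empty vector. Neb, which encodes the muscle filament protein nebulin, was at 27.1, 31.6, 32, 17.8 and 35.2 CPM in G-NHA9–8FA and at 139.7, 142, 137, 91 and 113 CPM in G-NHA9Midi (log2 fold change 2.11 ± 0.35 (SE), edgeR adjusted p = 2.7e-04), and its empty vector mean was 37.7 ± 14.1 CPM. All 5 G-NHA9Midi libraries were above both groups for Neb, and Gm13521 shares its strand. Azgp1, a secreted lipid-mobilising protein gene, was 5.35-fold higher than in G-NHA9–8FA and at least 108-fold higher than with the empty vector.

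In the other direction, Cpne8, a copine gene, averaged 2.77 ± 0.931 CPM in G-NHA9Midi compared with 11.3 ± 1.46 in G-NHA9–8FA, 10.3 ± 2.09 in G-NHA9, 8.92 ± 1.65 in G-NHA9Midi–21FGAA and 10.3 ± 1.45 with the empty vector. It was lower in G-NHA9Midi in each of the 4 comparisons (log2 fold change -2.03 ± 0.17 (SE), edgeR adjusted p = 4.5e-09 against G-NHA9–8FA), and Gm6746 overlaps it. Fstl1, a secreted glycoprotein gene of mesenchymal and other cells, was at 55.4, 23, 41.8, 131 and 75.8 CPM in G-NHA9Midi, at 201, 394, 315, 198 and 154 CPM in G-NHA9–8FA and at 651, 447, 957, 680.3 and 702 CPM with the empty vector (log2 fold change -1.95 ± 0.35 (SE), edgeR adjusted p = 7.5e-04 against G-NHA9–8FA). The lowest values were those of G-NHA9Midi, whose libraries themselves spread several-fold. Pknox2 and Mcpt2 were 3.46-fold and 4.8-fold lower, and Siglec1, a macrophage lectin gene, was 3.27-fold lower, a call lost without G-NHA9Midi library 2 and with no filter on low counts.

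**Figure D5:**
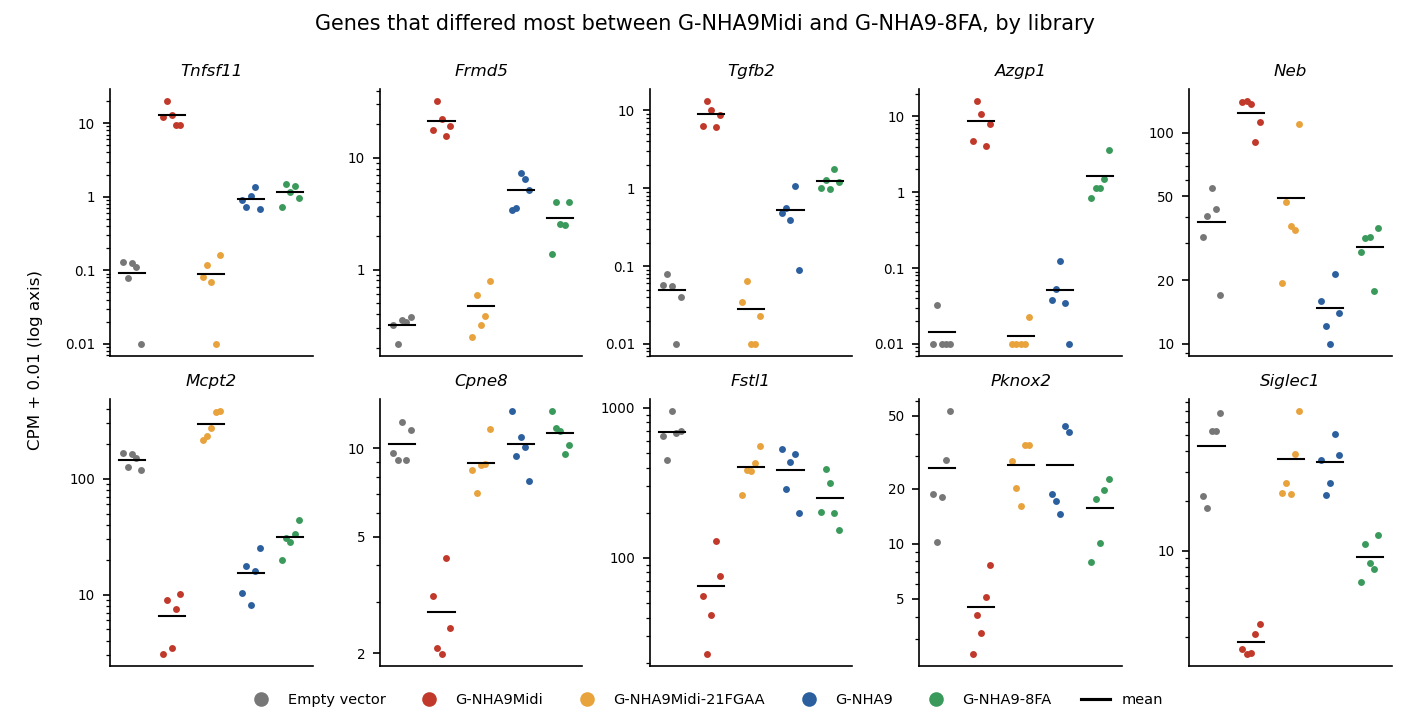
CPM with 0.01 added (log axes, which differ between panels) of the 5 genes that were highest and the 5 that were lowest in G-NHA9Midi relative to G-NHA9–8FA, in each library of 5 groups, with lines at the means. Tnfsf11 averaged 12.7 CPM in G-NHA9Midi and 1.14 in G-NHA9–8FA, and Cpne8 averaged 8.92 to 11.3 in the other 4 groups and 2.77 in G-NHA9Midi.

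Markers of cells other than the cultured myeloid ones were mostly low, and the lymphoid markers Cd3e, Cd79a, Cd8a, Trbc2 and Ncr1 had at most 3 counts in every library of both groups. Of 25 lymphoid markers 8 passed the filter, 1 was higher and 2 were lower (1 without empty vector library 1, 3 or 4 or G-NHA9Midi library 1, 2 or 3), and the summed level was 10.5 to 19.6 CPM with the empty vector and 12.2 to 18.6 CPM in G-NHA9Midi. Lck, a T cell kinase gene, rose 6.46-fold from 0.866 ± 0.149 to 5.63 ± 0.876 CPM, while the T cell receptor complex gene Cd3g fell 4.12-fold from a level near 1 CPM. Of 9 stromal and endothelial markers tested 5 rose and 3 fell, the endothelial receptor gene Kdr 3.51-fold lower and the adhesion molecule gene Vcam1 4.78-fold higher, with summed levels of 221 to 246 and 239.8 to 309.8 CPM. The 5 sex-linked transcripts did not pass the test, and of 13 mitochondrially encoded genes 1 was called higher, a call lost without G-NHA9Midi library 3 or 4. Mitochondrially encoded genes took 0.836% to 0.914% of the counts with the empty vector and 0.678% to 1.10% in G-NHA9Midi. Whether other cell types had a part in the results above was not tested.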

How the data were processed

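The authors deposited 1 table of whole-number read counts for 49671 genes in 35 libraries, without normalization. Per the labels, libraries were stranded total RNA, and the submitters' processing notes name STAR 2.7.0d, HTSeq 0.11.2, DESeq2 and mm10. The annotation and the strand setting of the counting are not given in the sources used here, so reads of overlapping genes may be shared. GENCODE M21 (GRCm38), which holds 99.5% of the gene identifiers, gave gene positions and overlaps.

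The tools were edgeR 4.0.16 and limma 3.58.1 under R 4.3.3. Genes were filtered with filterByExpr by group, which kept 17166 genes and 99.96% of the counts, and libraries were scaled by TMM. A quasi-likelihood model with a mean for each of the 7 groups was fitted to all 35 libraries, so that the groups share 1 estimate of the spread. P-values were adjusted over all genes tested in a comparison by the Benjamini-Hochberg method, with a threshold of 0.05. SE is the log2 fold change divided by the square root of the F statistic. Where no library of a group held more than 3 counts of a gene, the fold is a bound against the group's mean of that limit, which covers counting error only. The limit was 0.0598 to 0.0996 CPM in the libraries of G-NHA9Midi and the empty vector. In those of G-NHA9Midi–21FGAA it was 0.0382 to 0.0722 CPM. The procedure was also run on simulated counts, drawn independently for each library and with few genes changed. Such data differ from these, so that run does not bear on the TMM scaling or on dependence between libraries. DESeq2 1.42.0 was an alternative, and figures were drawn with matplotlib 3.10.9.

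The gene lists were chosen with earlier results of these data known, and give no independent support. Named are the 12 largest rises and falls against the empty vector (5 in each other comparison) among genes called, without overlap and with a mean of at least 5 CPM, the Hox and TALE genes, and from each list the 3 most abundant genes and the 3 genes called with the largest change and a mean of at least 1 CPM. Gata2, Gfi1b, Zbtb7a, Ccr3, Cebpe, Rpl3l, Mrpl27, Mrpl45 and 5 lymphoid markers with few counts were named after their values were seen. Some genes that the rule selects are not reported here. Other alternatives were RLE factors, no TMM, other filters, fewer libraries, the replicate number as a block, a covariate of sex-linked transcripts, leaving out both empty vector libraries not labelled 8 weeks and, added after seeing the data, the block with only the 10 libraries compared.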

Additional observations from a re-analysis of the deposited data

Results flagged for a closer look

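Of 132 groups of 5 libraries examined, 7 held a library whose distance from the nearest other exceeded Dixon's limit of 0.71 of the group's range, and chance alone flags about 1 in 20. For 1810006J02Rik, G-NHA9Midi library 2 was at 20.8 CPM and the other 4 at 8.53 to 12.03. For Mefv, empty vector library 4 was at 1.53 CPM and the others at 0.712 to 0.936. For Crisp3, empty vector library 1 was at 1.75 CPM and the others at 0.0306 to 0.139. For Chil4, G-NHA9Midi library 4 was at 314.5 CPM and the others at 193 to 213. For Tmem47, empty vector library 1 was at 0.024 CPM, which is 1 count, and the others were at 0. The summed level of the red cell membrane genes was 286.8 CPM in G-NHA9Midi library 5 and 245.1 to 248.9 in the others. The summed level of the mitochondrial ribosomal protein genes was 2648 CPM in G-NHA9Midi library 4 and 2372 to 2451 in the others. None of the calls for the 5 genes against the empty vector was lost without any 1 library.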

How the results depend on the processing

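Requiring a log2 fold change of at least 1 as well left 2558 genes against the empty vector, 2905 against G-NHA9Midi–21FGAA, 1363 against G-NHA9 and 286 against G-NHA9–8FA. Leaving out 1 library at a time gave 6052 to 7038 genes against the empty vector, 6642 to 7271 against G-NHA9Midi–21FGAA, 2516 to 3700 against G-NHA9 and 374 to 888 against G-NHA9–8FA, and leaving out empty vector libraries 4 and 5 together gave 5340 against the empty vector. The number against G-NHA9–8FA was 472 with no filter on low counts and 1184 with sex-linked transcripts as a covariate, and the cause was not tested. DESeq2 called 7110 genes against the empty vector.

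With the replicate number as a block, 8333 genes were called against the empty vector, 8769 against G-NHA9Midi–21FGAA, 4971 against G-NHA9 and 1294 against G-NHA9–8FA. The number was not taken as a pairing in the main fit. Deviations of libraries with the same number in G-NHA9Midi and the empty vector correlated at -0.068 to 0.391, over 0.1 in 2 of 5 pairs (4 of 5 with G-NHA9Midi–21FGAA, 3 of 5 with G-NHA9 and 4 of 5 with G-NHA9–8FA). Of the 10 libraries, 4 correlated best with their own number (7, 5 and 6 in those other comparisons). Mean correlations over the 4 comparisons were 0.156 to 0.228 for the same number and -0.056 to -0.038 for different numbers. Whether libraries of the same number share a batch was not tested.

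Of 264 genes named and tested against the empty vector, 209 were called, 173 of them under every alternative, and the call of 36 was lost under at least 1. No called gene reversed. Among the 55 not called, 21 changed sign under some alternative without being called, and 20 were called in the same direction under at least 1 alternative, Runx1 under 9 of them.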
